A study of Onthophagus taurus with 96 samples.

Results

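The genes described here are head patterning transcription factors of the horned dung beetle *Onthophagus taurus*, chosen by exact name from a list of 9 *Drosophila* names. The names sought were Dmel-Tmp-oc (orthodenticle), Dmel-Tmp-ems, Dmel-Tmp-optix, Dmel-Tmp-ey, Dmel-Tmp-toy, Dmel-Tmp-so, Dmel-Tmp-eya, Dmel-Tmp-tll and Dmel-Tmp-btd. Of the 17483 genes in the count table, 2 carried one of these names, sine oculis (*so*) and tailless (*tll*), and the other 7 names are not analysed here. Beside them stand 3 genes that carry a human name of the same family, *six3* (the family of *optix*), *pax6* (the family of *ey* and *toy*) and *eya1* (the family of *eya*). These 3 counterparts are not members by name and are described as related genes.

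In *Drosophila*, *so* encodes a homeodomain factor that works with the co-factor encoded by *eya*, and both lie downstream of the Pax6 genes *ey* and *toy* in the network that sets up the eye. *tll* encodes an orphan nuclear receptor that patterns both ends of the embryo and later acts in neural stem cells and the optic lobe. Factors of the *six3*/*optix* family mark the most anterior part of the head in many animals.

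The study compared sexes, tissues and knockdown of *doublesex* (*dsx*), the transcription factor that directs sex-specific development in insects. Final-instar larvae from a field-collected stock were injected with 3 µl holding either 0.5 µg of *dsx* double-stranded RNA or 1 µg of vector-derived control RNA, and pupae were dissected on the first day after pupation. The sampled tissues were the brain (supraesophageal ganglion), the posterodorsal head epithelium that bears the head horns, the dorsal prothorax that bears the thoracic horns, and the posterior abdominal epidermis with the genitalia. Control females, control males, *dsx*RNAi females and *dsx*RNAi males gave 6 libraries in each tissue, thus 16 groups and 96 libraries, and all groups, controls included, were injected. The tissues came from the same pupae, but the labels name no pupa, so that the tissue tests given here treat the libraries as independent. The knockdown was systemic, and the head region of control females carries no horn.

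The libraries held 3615803 to 19008005 reads in genes (median 8518004). Levels are given as CPM, read counts scaled to library size with TMM factors set over all 96 libraries, and this scale serves only to compare 1 gene between libraries. TMM factors ran from 1.53 to 1.58 in the brain and from 0.367 to 1.11 in the head horns, so that scaling by library totals alone moved the median log2 difference of all genes between brain and head horns from -0.05 to 0.94. Across the 7 tissue comparisons, the share of calls in the higher direction was 46.9% to 49.9% under TMM and 9.23% to 93.2% under library totals. TMM sets the bulk of the log ratios near 0, so that its near-even split is no check on the scaling. Tissue labels matched their defining genes. The Hox gene *Abd-B* had a median of 222 CPM in the genitalia and at most 0.885 CPM in any library of the other tissues, 8 neuronal genes summed to a median of 3257 CPM in the brain and 163 to 260 CPM elsewhere, and the trunk Hox gene *Antp* had a median of 13.96 CPM in the thoracic horns and 0.583 CPM in the head horns. Mean *dsx* fell from 49.4 to 11.2 CPM in male head horns (log2 fold change -2.14, SE 0.233, adjusted p = 0.00826, edgeR quasi-likelihood test). In the other horn and genital comparisons of *dsx*RNAi with controls the log2 fold change of *dsx* lay between -2.19 and -0.996 with no adjusted p under 0.05, and in the brain *dsx* had at most 8 reads per library.

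The first question was whether these genes differ between the head tissues and the rest of the body. *tll* was a brain gene in these data, with 5930 reads in the 24 brain libraries, 26 in the 24 head horn libraries, 13 in the thoracic horns and 7 in the genitalia. *so* was read in all 96 libraries and was highest in the genitalia. Against thoracic horns and genitalia together, head horns and brain had *tll* higher by 5.09 on the log2 scale (SE 0.301, adjusted p = 1.68e-26) and *so* lower by a log2 difference of -0.54 (SE 0.173, adjusted p = 0.00406; edgeR, Benjamini-Hochberg over 11528 genes). Thus 2 of 2 members were called, where 72.8% of all genes tested were called, and the call of *tll* was fixed by the filter on low counts, which it passed through the brain alone. With library totals in place of TMM, *so* was at -0.30 (adjusted p = 0.136) and was not called. Differences between bulk tissues do not tell fewer cells expressing a gene from less RNA per cell.

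The levels of both members in every library are plotted by tissue and group.

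**Figure D1:**
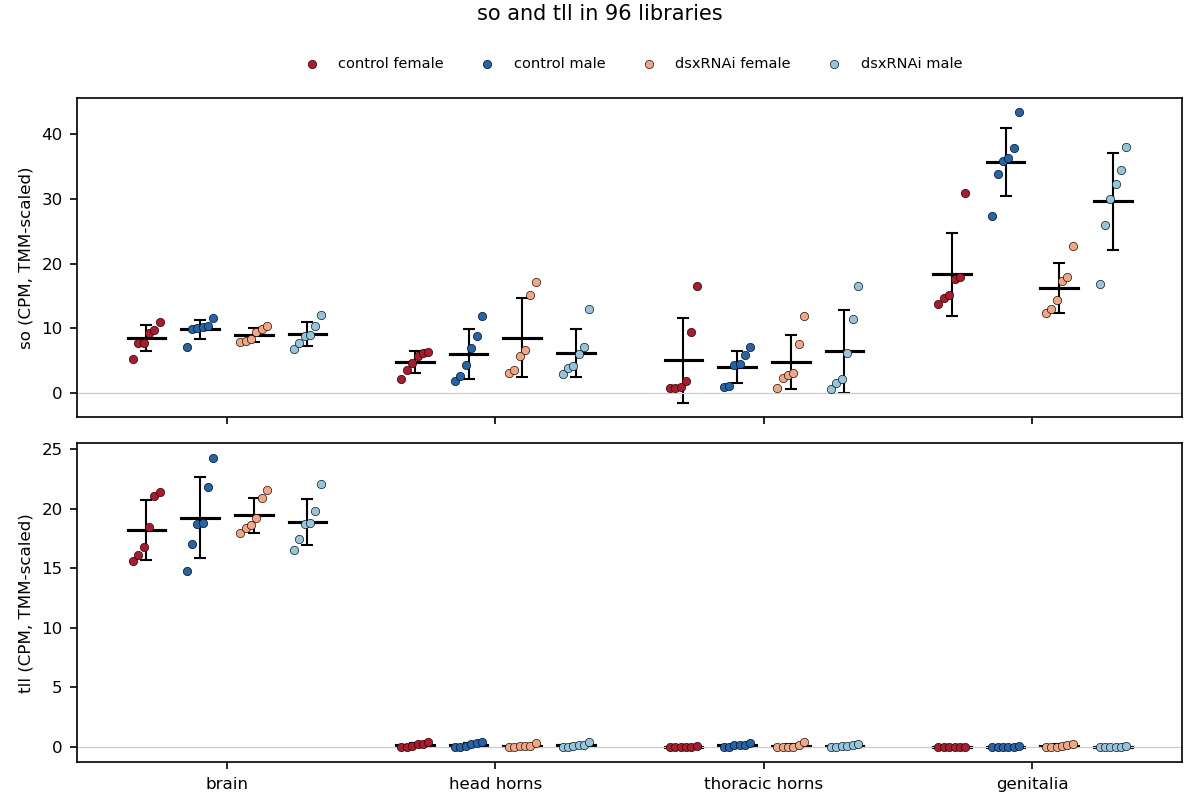
Levels of *so* (top) and *tll* (bottom) in CPM in each of 96 libraries (points), by tissue and by sex and treatment (colour), with the group mean (line) and SD (bar, n = 6). *so* is highest in male genitalia and spreads widely in the thoracic horns, whereas *tll* lies between 14.8 and 24.3 CPM in the brain and near 0 elsewhere.

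The *tll* gene model (OTAU015346) lies on scaffold 380 of the *O. taurus* draft assembly, from position 53828 to 55149 on the plus strand. Among control brains, females were at 15.6, 17.6 and 21.4 CPM (lowest, median and highest of 6) and males at 14.8, 18.8 and 24.3 CPM. In *dsx*RNAi females it was at 17.96, 18.9 and 21.6 CPM, and in *dsx*RNAi males at 16.6, 18.7 and 22.1 CPM. The 4 brain groups overlapped throughout, and the 24 libraries varied by 12.2% (coefficient of variation).

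Outside the brain *tll* was near the limit of detection. No head horn library held more than 4 reads, no thoracic horn or genital library more than 2, and the 6 control female genital libraries held 0. With 3 reads as the limit that a count of 0 allows, no level can be given for single libraries of these tissues. Pooled over libraries, the brain exceeded the head horns 134-fold (95% exact binomial interval 91.2 to 205), the thoracic horns 240-fold (140 to 450) and the genitalia 751-fold (364 to 1869), where the intervals cover counting error only. The pooled head horn level was 1.79 times that of the thoracic horns, with an interval of 0.888 to 3.80 that includes equality. Since *tll* passed the filter through the brain, its differences from the brain are a description.

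The *so* gene model (OTAU000241) lies on scaffold 5, from position 3557467 to 3581497 on the minus strand. Among control genitalia, males were at 27.3, 36.1 and 43.4 CPM of *so* (lowest, median and highest of 6) and females at 13.8, 16.4 and 30.98 CPM. In *dsx*RNAi males it was at 16.9, 31.2 and 38.05 CPM and in *dsx*RNAi females at 12.4, 15.8 and 22.7 CPM. In the control genitalia 5 of 6 females lay below every male, and female replicate 89, at 30.98 CPM, overlapped the males.

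In the brain *so* kept to a narrow range, 5.33 to 12.1 CPM over the 24 libraries, with group means of 8.48 ± 1.98 (SD, n = 6) in control females, 9.86 ± 1.48 in control males, 9.02 ± 1.05 in *dsx*RNAi females and 9.14 ± 1.84 in *dsx*RNAi males. In the head horns, control females were at 2.22, 5.24 and 6.43 CPM, control males at 1.83, 5.64 and 11.9, *dsx*RNAi females at 3.14, 6.18 and 17.2, and *dsx*RNAi males at 2.89, 5.14 and 13.04. All 4 head horn groups overlapped.

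The thoracic horns had the widest spread, from 0.614 to 16.5 CPM, a 26.9-fold range against 2.26-fold in the brain, 9.42-fold in the head horns and 3.49-fold in the genitalia. Control females were at 0.775, 1.39 and 16.5 CPM, control males at 0.994, 4.46 and 7.19, *dsx*RNAi females at 0.842, 2.97 and 11.9, and *dsx*RNAi males at 0.614, 4.18 and 16.5. High and low libraries were found in every group. Ordered by mean, the 16 groups ran from control male genitalia (35.8 ± 5.26 CPM) to control male thoracic horns (4.02 ± 2.49), and of 15 neighbouring pairs in that order 1 differed by more than the SDs, *dsx*RNAi female genitalia (16.3 ± 3.83) over control male brain (9.86 ± 1.48).

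Between single tissues, *so* did not pass the threshold between head horns and thoracic horns (log2 difference 0.31, SE 0.25, adjusted p = 0.413), with an approximate 95% interval of -0.18 to 0.80. *tll* did not pass either (adjusted p = 0.137), so 0 of 2 members were called where 23.5% of all genes were. At an unadjusted p under 0.05 the count was 1 of 2, *tll*, and DESeq2 called 0.

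*so* was lower in head horns than in genitalia by a log2 difference of -1.92 (SE 0.248, adjusted p = 1.38e-10) and higher in genitalia than in thoracic horns by 2.22 (SE 0.252, adjusted p = 1.49e-12), where 66.9% and 64.4% of all genes were called. The brain had *so* above the thoracic horns by 0.84 (adjusted p = 0.00132; 81.4% of genes called), below the genitalia by a log2 difference of -1.38 (adjusted p = 2.68e-07; 81.1%) and above the head horns by 0.54 (adjusted p = 0.0375; 80.5%). Under library totals the last 3 differences were 1.91, -1.001 and 1.52, each with the same sign. In these 5 comparisons 2 of 2 members were called, and with so many genes called the count says little about them. The *tll* calls between genitalia and the horns rest on 7 to 26 reads.

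The second question was whether the members differ by sex. In control genitalia *so* was lower in females (18.4 ± 6.39 CPM) than in males (35.8 ± 5.26), with a log2 difference of -0.95 (SE 0.198, adjusted p = 0.0237, edgeR), and 10.3% of the 10014 genes tested were called. The members tested there were 1, since *tll* was removed by the filter. After *dsx*RNAi the difference was -0.85 (SE 0.203, adjusted p = 0.0537), with females at 16.3 ± 3.83 and males at 29.6 ± 7.44 CPM. It missed the threshold, and 2.06% of genes were called. Its unadjusted p was 0.00127, and DESeq2 called it (adjusted p = 0.00612). The sex difference was not shown to change with the knockdown, as the interaction was 0.10 (SE 0.287, adjusted p = 1.00) with an interval of -0.47 to 0.66, where 0.0191% of genes were called.

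The control call depended on single libraries. It was past the threshold in 6 of the 12 fits that left out 1 library, with log2 differences of -1.17 to -0.88 and adjusted p of 0.000128 to 0.0659. It was lost without female replicate 86 or 88 and without male replicate 92, 93, 95 or 96, with adjusted p of 0.0521 to 0.0659. Without female replicate 89 it was -1.17 (adjusted p = 0.000128), in a fit that called 4568 genes in place of 1028. In the *dsx*RNAi genitalia the difference was past the threshold in 2 of 12 such fits, without female replicate 76 (adjusted p = 0.0152) or male replicate 82 (adjusted p = 0.0298).

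Muscle RNA in the same samples is given here with no test. The sum of 8 sarcomere genes, which build the contractile apparatus, had a median of 5176 CPM in control female genitalia (2316 to 8151) and 2024 CPM in control males (1870 to 2687), and 4429 and 2050 CPM after *dsx*RNAi. Each of the 8 genes was read in every tissue, with 0 of them at a median of 0. The sum of 3 genes listed as glial had a median of 1365 CPM in control females (247 to 1907) and 470 CPM in control males (389 to 675), and 928 and 411 CPM after *dsx*RNAi. The sum of 8 neuronal genes was 333 CPM in control females and 206 CPM in control males. Female replicate 89, the highest of its group for *so*, had the lowest muscle sum, 2316 CPM. The part of tissue composition in the *so* difference was not tested.

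In the other tissues no member passed the threshold for sex. In control head horns *so* had a log2 difference of -0.34 (SE 0.426, adjusted p = 0.684; 6.53% of all genes called), in thoracic horns 0.36 (SE 0.823, adjusted p = 0.911; 0.355% called) and in the brain -0.22 (SE 0.157, adjusted p = 0.726; 0.16% called). *tll*, testable in the brain only, was at -0.08 (SE 0.121, adjusted p = 0.889), with an interval of -0.32 to 0.16. After *dsx*RNAi the female minus male values of *so* were 0.51 in head horns (0% of genes called), -0.49 in thoracic horns (0%) and -0.02 in the brain (0.14%), and that of *tll* in the brain was 0.04. No member passed at an unadjusted p under 0.05 in these comparisons, and DESeq2 called 0.

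The third question was whether *dsx*RNAi changed the members. *so* was tested in both sexes of all 4 tissues, *tll* in both sexes of the brain, and 0 were called by edgeR, 0 at an unadjusted p under 0.05, and 0 by DESeq2. In males, the log2 change of *so* with *dsx*RNAi was 0.01 (SE 0.482) in head horns, 0.70 (SE 0.735) in thoracic horns, -0.11 (SE 0.144) in the brain and -0.27 (SE 0.172) in genitalia, where 0.393%, 0%, 0% and 0% of all genes were called. In females it was 0.85 (SE 0.452), -0.13 (SE 0.854), 0.09 (SE 0.15) and -0.17 (SE 0.227) in the same order, where 0%, 0%, 0% and 0.0101% were called. These values do not show that *so* was unchanged, as the interval for female head horns ran from -0.04 to 1.73. In the *dsx*RNAi female head horns, replicates 51 and 54 had 15.1 and 17.2 CPM of *so*, and the rest of the group 3.14 to 6.60. Those 2 libraries had the highest muscle sums of all head horn libraries, 2941 and 2525 CPM. The part of muscle in the female head horn value was not tested.

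*tll* in the brain changed by -0.03 in males (interval -0.25 to 0.19) and 0.09 in females (interval -0.09 to 0.27). *dsx* itself was barely read in the brain. No sex by knockdown interaction was called for *so* or *tll* in any tissue, where 1.44% (head horns), 0.0105% (thoracic horns), 0% (brain) and 0.0191% (genitalia) of genes were called. In the comparisons above with 0% of genes called by edgeR, 200 to 637 genes had an unadjusted p under 0.05 and DESeq2 called 1 to 114.

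The spread of *so* in the thoracic horns ran with muscle genes. This relation was looked for after the levels had been seen. The 8 muscle genes summed to 406 to 6181 CPM in the thoracic horns, and deviations of log2 *so* and log2 muscle sum from their group means had r = 0.938 (Pearson, permutation p = 1e-05, the smallest that 100000 resamples can give; Spearman rho = 0.910, p = 1e-05; n = 24). The Benjamini-Hochberg adjusted p over 22 relations was 0.00022 for each, r was positive in 4 of 4 groups (0.905 to 0.985), and r without the 2 libraries farthest from the median was 0.920.

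In the head horns the same relation had r = 0.744 (rho 0.638, permutation adjusted p = 0.00741 and 0.0329), positive in 3 of 4 groups, with r = 0.642 without the 2 farthest libraries. In the brain r was 0.109 (rho 0.157, permutation adjusted p = 0.665 and 0.623). In the genitalia, which had the most muscle RNA, r was -0.585 (rho -0.476, permutation adjusted p = 0.054 and 0.0925). The genital relation did not pass the threshold. The part of muscle tissue in the levels of *so* was not tested.

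**Figure D2:**
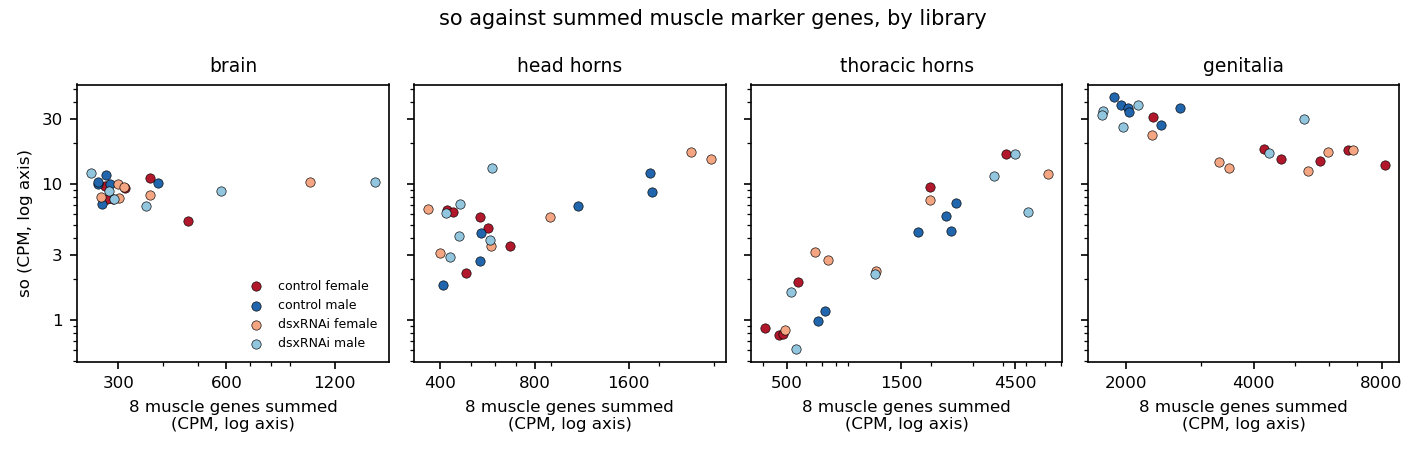
*so* against the summed level of 8 muscle genes in each library, both in CPM on log axes, with 1 panel per tissue and 24 libraries in each (colour, sex and treatment). *so* rises with muscle RNA over the thoracic horn libraries (r = 0.938 after group means were removed) and the genitalia had r = -0.585, which did not pass the threshold (permutation adjusted p = 0.054).

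*so* and *eya1*, whose relatives act as partners in *Drosophila*, varied together among head horn libraries, with r = 0.776 (rho 0.817, permutation adjusted p = 0.00022 and 0.00033, n = 24), positive in 4 of 4 groups, and r = 0.783 without the 2 farthest libraries. The thoracic horns, added after the levels had been seen, gave r = 0.606 (rho 0.617, adjusted p = 0.00808 and 0.0212 by permutation), and genitalia, also added later, gave r = 0.554 (rho 0.325, adjusted p = 0.0558 and 0.237 by permutation). In the brain r was 0.386 (rho 0.392, permutation adjusted p = 0.108 and 0.143). *so* and *tll* in the brain had r = 0.276 (rho 0.351, permutation adjusted p = 0.333 and 0.207), so no relation between the members was shown. In the head horns r was 0.598 for *six3* with *eya1*, 0.282 for *six3* with *so* and -0.319 for *six3* with *pax6*. *pax6* had r = -0.369 with *so* and -0.479 with *eya1*, negative in every group. None of these passed the threshold (permutation adjusted p of 0.054 to 0.416 for r). *so* also ran with the muscle sum in the head horn libraries (r = 0.744), and the part of muscle in its relation with *eya1* was not tested.

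The genes most like *so* over the 96 libraries, by Pearson correlation of log2 CPM among 6613 named genes, were *side* (r = 0.820), *cg31999* (0.819) and *gs1l* (0.794). Those most like *tll* were *cg14989* (0.993), *dmrt99b* (0.993) and *hbn* (0.992), each with a median of 0 CPM in the head horns, thoracic horns and genitalia. These correlations are descriptions across libraries that differ in tissue, and with ranks in place of values 0 of the 3 names for *so* and 1 of the 3 for *tll* were shared.

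The human-named counterparts differed in where they were read. *six3* (OTAU006142, scaffold 23, 375372 to 376064, minus strand) and *pax6* (OTAU003687, scaffold 7, 809238 to 841434, plus strand) were read in the brain and head horns and almost not in the thoracic horns, with 5 and 9 reads over 24 libraries. *eya1* (OTAU006356, scaffold 413, 285538 to 286889, minus strand) was read in all tissues, with a median of 26.3 CPM in genitalia and 23.2 CPM in head horns. Head horns exceeded thoracic horns 172-fold for *six3* (95% exact binomial interval 73.6 to 532) and 359-fold for *pax6* (189 to 786) in pooled CPM, with fitted log2 differences of 7.24 (SE 0.408) and 8.16 (SE 0.279), and *eya1* was higher by 0.54 (SE 0.0874, adjusted p = 8.44e-07). *six3* and *pax6* passed the filter through the brain and head horns, where they are high, so that their direction against the thoracic horns was fixed and no test is given.

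**Figure D3:**
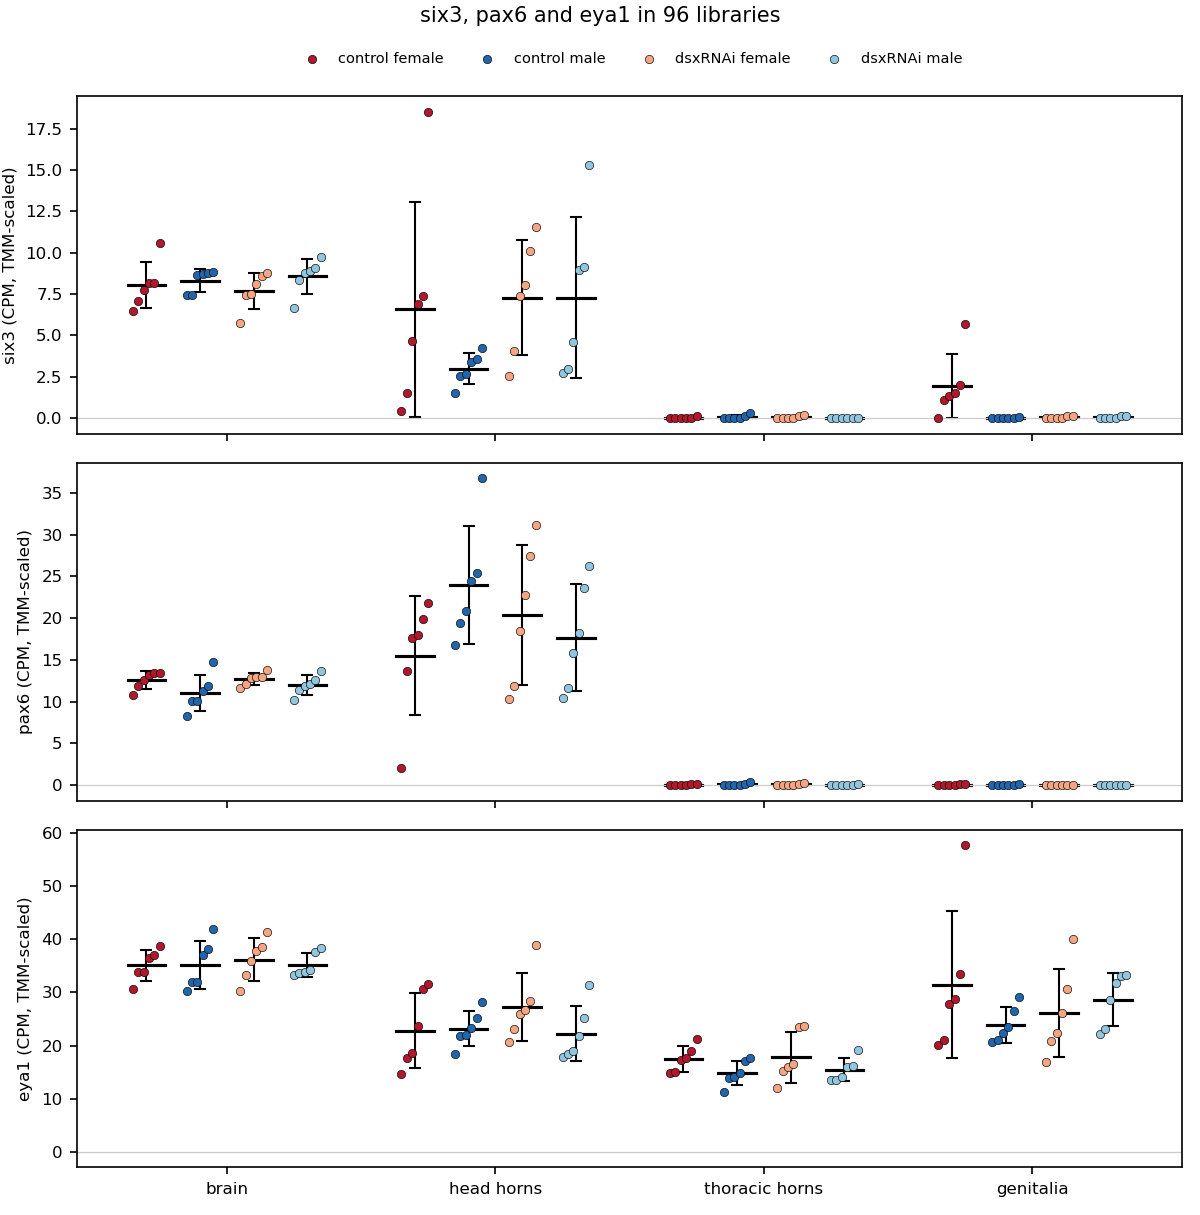
Levels of *six3*, *pax6* and *eya1* in CPM in each of 96 libraries (points), by tissue and by sex and treatment (colour), with the group mean (line) and SD (bar, n = 6). *six3* and *pax6* are near 0 in the thoracic horns, and in the genitalia *six3* is seen in control females, up to 5.67 CPM.

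*pax6* was at 8.24 to 14.7 CPM in the brain and 2.06 to 36.7 in the head horns. The brain minus head horn difference was -0.67 under TMM (SE 0.165, adjusted p = 0.000191) and turned to 0.30 under library totals (adjusted p = 0.117), so no order of the 2 head tissues is given. Control female head horn replicate 61 stood apart from its group, with the lowest *pax6* (2.06 CPM against 13.7 to 21.8 in the other 5) and the highest *six3* (18.5 against 0.445 to 7.38). Without it the *pax6* difference was -0.72.

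*six3* in the genitalia was seen in control females, with 109 reads in 5 of 6 libraries, of which 45 were in replicate 89. Control males held 1 read, *dsx*RNAi females 2 and *dsx*RNAi males 2. The filter on low counts removed the gene from these comparisons. Without the filter, control females exceeded control males by 6.33 on the log2 scale (SE 1.07, adjusted p = 0.0101, edgeR), and *dsx*RNAi minus control females was -5.45 (SE 1.06, adjusted p = 0.599; unadjusted p = 0.000199), whereas DESeq2 gave adjusted p of 8.84e-06 and 0.00373. This comparison was chosen after its values were seen, and its fitted sizes rest on 1 or 2 reads in the lower group.

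In male head horns *six3* had a median of 3.02 CPM (1.52 to 4.22) in controls and 6.75 CPM (2.71 to 15.3) after *dsx*RNAi, a log2 difference of 1.26 (SE 0.433, adjusted p = 0.215) that was not called. Its interval ran from 0.42 to 2.11, and its unadjusted p was 0.0128 (edgeR), where 15.6% of all genes had one under 0.05. *eya1* had group means of 35.1 to 36.2 CPM in the brain, 22.3 to 27.3 in head horns, 14.8 to 17.8 in thoracic horns and 23.9 to 31.4 in genitalia. None of the 3 counterparts was called for sex or knockdown in the tissues where edgeR tested them. Per gene model length, on the deposited FPKM scale, median brain levels were 41.4 for *eya1*, 18.5 for *tll*, 14.2 for *six3*, 12.9 for *pax6* and 5.90 for *so*. In the head horns they were 14.1 for *eya1*, 12.1 for *pax6*, 4.15 for *six3* and 1.67 for *so*, and *tll* was at 0.0619.

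A wider list of 23 genes under *Drosophila* names was read beside the members, most of them head and eye patterning genes, with the trunk gene *antp* and the dynactin subunit *gl* among them. Of 21 tested, 10 were higher in head horns than in thoracic horns and 1 was lower, where 11.5% of all genes were higher and 12% lower, and the median log2 difference was 0.98 against -0.002 for all genes. The list was drawn up with results of these data known. The 1 lower gene was *antp* (-4.46, SE 0.217), a Hox gene of the trunk. Among those higher, *slp2*, a fork head factor, was at 7.80 (SE 0.32), *dac*, a nuclear factor of the eye network, at 6.29 (SE 0.248), *wg*, a Wnt ligand, at 2.46 (SE 0.242) and *hth*, a homeodomain partner of Hox proteins, at 2.14 (SE 0.164). The counts include genes with few reads in 1 of these tissues. *slp2* and *dac* held 23 and 54 reads over 24 thoracic horn libraries, and *antp* held 116 over 24 head horn libraries. Such genes passed the filter through tissues where they are high, so that their direction was fixed. The counts and these values are a description. Markers of other cell types differed in level between the same tissues. The sum of 9 photoreceptor and eye genes had a median of 328 CPM in head horns (193 to 586) and 163 CPM in thoracic horns (136 to 230), with 2 of the 9 at a median of 0 in each, and *arr1*, an arrestin of photoreceptors, was at 217 and 68.6 CPM. *chp*, a photoreceptor surface protein, reached 33.6 CPM in head horns and 0.463 CPM in thoracic horns, with medians of 0.563 and 0.139 CPM. The rest of the list did not move alike. In the same order, medians were 51.8 and 50.9 CPM for *norpa*, 50.5 and 40.6 for *rdgb* and 4.41 and 2.80 for *eys*. They were 1.14 and 0 for *ninac*, 0.506 and 0.615 for *trpl*, 0 and 0.125 for *trp* and 0 in both for *arr2*. The sum of 2 blood cell genes was 138 CPM (26.2 to 491) in head horns and 1720 CPM (157 to 11049) in thoracic horns. The part of these cells in the differences was not tested.

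**Figure D4:**
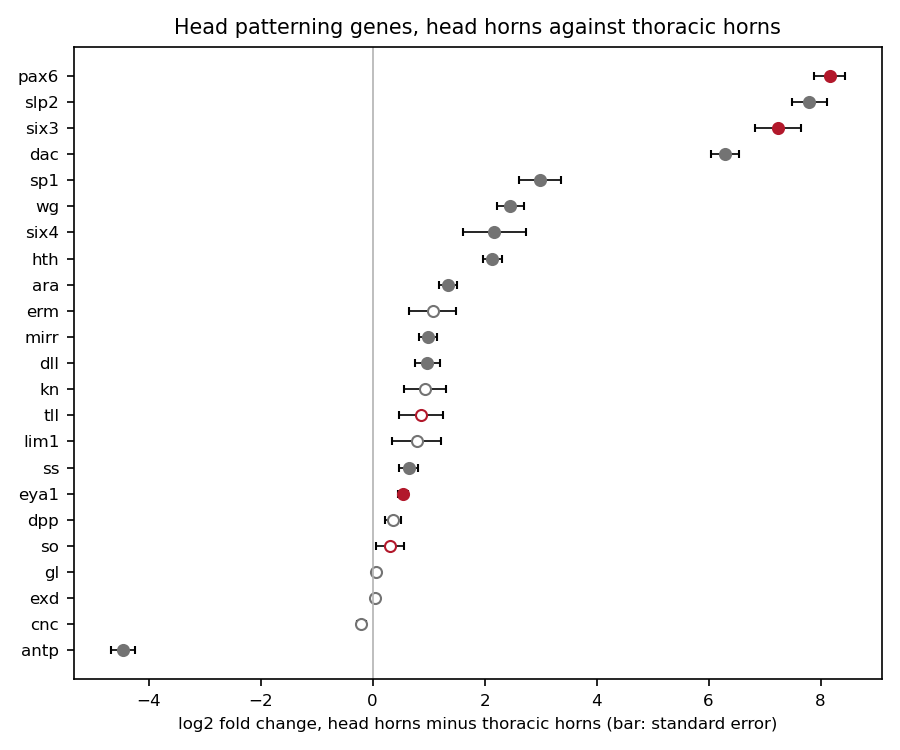
Fitted log2 fold change, head horns minus thoracic horns, with its standard error, for the 2 members and 3 counterparts (red) and the related genes (grey); filled points had an adjusted p under 0.05, and 3 of 26 genes with a standard error over 1 are not drawn. *pax6* (8.16), *slp2* (7.80), *six3* (7.24) and *dac* (6.29) lie far to the head horn side, whereas the points of *so* (0.31, SE 0.25) and *tll* (0.87, SE 0.397) are open. *tll* passed the filter through the brain, and its value rests on 26 head horn and 13 thoracic horn reads. *pax6*, *slp2*, *six3*, *dac* and *antp* passed the filter through tissues where they are high. Their direction was fixed, so that their filled points are no test.

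Between the sexes, 5 of 12 tested related genes were higher in control female than in control male head horns and 0 were lower, where 3.23% of all genes were higher. They were *dac* (log2 difference 1.92, SE 0.283), *ara* (1.5, SE 0.242), *mirr* (1.42, SE 0.174), *hth* (1.25, SE 0.184) and *slp2* (1.22, SE 0.199), with adjusted p of 0.00147 to 0.00454. *ara* and *mirr* encode homeodomain factors of the Iroquois family. The related list was drawn up with results of these data known, so that its counts beside those of all genes are a description. *dac*, for example, was at 30.7, 57.9 and 70.96 CPM in the hornless control females, against 7.69, 12.3 and 22.4 CPM in control males, with no overlap, and after *dsx*RNAi at 15.8, 24.6 and 57.1 in females and 7.84, 20.0 and 44.8 in males. The interaction of sex and *dsx*RNAi was called for *mirr* (-1.50, SE 0.324, adjusted p = 0.0312) and *ara* (-1.35, SE 0.323, adjusted p = 0.0435), 2 of 13 tested, where 0.279% of all genes were called in that direction. For *dsx*RNAi against control, edgeR called 0 of 12 related genes in male head horns and 0 of 11 in female head horns. Between the *dsx*RNAi sexes it called 0 of 12. The shares of all genes called were 0.393%, 0% and 0%. Blood cell genes in the same groups summed to 46.2 CPM (26.2 to 88.8) in control females and 320 CPM (111 to 364) in control males, with no overlap. Photoreceptor and eye genes were at 395 CPM (215 to 445) and 272 CPM (218 to 536), and muscle genes at 510 CPM (419 to 667) and 821 CPM (407 to 1900). The part of these cells in the sex differences was not tested. Neither *so* nor the counterparts had a call in these head horn comparisons, and the difference in response between the lists was not tested.

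In control genitalia 2 of 18 related genes were higher in females, *antp* (1.02, SE 0.264) and *cnc* (0.83, SE 0.191), and 4 were lower, *lim1* (-2.74, SE 0.344), *wg* (-1.74, SE 0.349), *sp1* (-1.55, SE 0.342) and *dac* (-1.25, SE 0.334), where 6.53% and 3.73% of all genes were called. Their adjusted p ran from 0.00145 to 0.0425. *lim1* encodes a LIM homeodomain factor, and *so* had the same sign as these 4. After *dsx*RNAi *antp* was higher in females and *lim1*, *wg* and *sp1* were lower, with 1 and 3 of 17 tested called where 1.09% and 0.972% of all genes were. The control fit called 1028 genes in all, and 121 to 4568 when single libraries were left out. Muscle genes summed to a median of 5176 CPM in control female and 2024 CPM in control male genitalia. Genes listed as glial were at 1365 and 470 CPM. The part of tissue composition in these differences was not tested. The related list was drawn up with results of these data known, so that its counts are a description.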

How the data were processed

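RNA from 96 dissected pupal tissue samples was sequenced as single-end, stranded poly(A) libraries. The authors trimmed reads with Trimmomatic 0.32, mapped them with TopHat2 2.1.0 to *O. taurus* gene models v0.5.3 and counted them per gene with HTSeq 0.6.1p1. The deposited counts are whole reads per gene, not normalized, and the deposited FPKM values were made by the authors from those counts and the gene model lengths. A deposited annotation gives start and end positions, gene names and aliases.

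Tests were run on the counts with edgeR 4.0.16 (R 4.3.3, TMM, filterByExpr, robust quasi-likelihood fit), with Benjamini-Hochberg adjustment over all genes tested and a threshold of 0.05. Tissue comparisons used all 96 libraries with a term for each of the 16 groups, pair comparisons the 12 libraries of both groups, and interactions the 24 libraries of a tissue. Intervals of fold changes are approximate 95% normal intervals from the standard error. The library numbers run in the same order in each tissue at a step of 24, which the labels do not explain. Deviations from group means over 11528 genes correlated between tissues at over 0.1 for 23 or 24 of 24 same-place libraries in each of the tissue pairs, and 20 to 24 of 24 correlated best with their own place, so that this place was also used as a block, an alternative chosen after seeing the data. The scripts were tested on simulated data. Alternatives were DESeq2 1.42.0, edgeR without the filter, edgeR scaled with the DESeq2 factors, control libraries only, all 4 groups of a tissue in 1 fit and, chosen after seeing the data, scaling by library totals, the omission of single libraries and the muscle relations. Correlations used log2(CPM + 0.5) and permutation tests (scipy 1.17.1, 100000 resamples).

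The members and lists were chosen with earlier results of these data known. All members and counterparts were named, and the related genes called between the sexes or in an interaction. Of the related genes called between head horns and thoracic horns only a part was named. The 3 genes most like each by correlation were given for the members only. TMM assumes that most genes do not differ, which bears most on comparisons between tissues. Binomial intervals and the limit of 3 reads cover counting error only, and levels between genes were compared as FPKM.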

Additional observations from a re-analysis of the deposited data

Results flagged for a closer look

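Of 53 groups of 6 libraries tested with Dixon's criterion for a single extreme value, 4 had such a value, where chance gives about 5% of groups. Genitalia of control female replicate 89 had the highest *so* of its group, 30.98 CPM against 13.8 to 17.96 in the other 5. The same library had the highest *six3*, 5.67 CPM against 0 to 1.97, and the highest *eya1*, 57.7 CPM against 20.1 to 33.4. In the brain, control male replicate 20 had the lowest *so* of its group, 7.10 CPM against 9.95 to 11.6.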

How the results depend on the processing

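With the place of each library in its tissue's number series as a replicate block, 2 of 2 members were called in every tissue comparison except head horns against thoracic horns (0 of 2), and no call of a member or counterpart changed. *tll*, *six3* and *pax6* passed the filter through tissues where they are high. Their calls for those tissues were fixed, so that the same calls in the block fit are no test. *so* was at -0.47 (adjusted p = 0.0122, edgeR) for head horns and brain against the other tissues and at 0.46 (adjusted p = 0.187) for head horns against thoracic horns in that fit. No paired analysis was possible for sex and knockdown because each pupa belongs to 1 sex and 1 treatment. Of 551 values recomputed under an alternative, 159 counts and summaries and 358 values of single genes kept their direction and side of the threshold or moved by less than the set margin. The count of members called between head horns and brain and the other tissues was 1 of 2 under library totals, and that between genitalia and thoracic horns was 1 under library totals (*tll* -1.01, adjusted p = 0.0704) and 1 with control libraries only (*tll* -1.996, adjusted p = 0.0574; edgeR). In the control genitalia the count between the sexes was 0 to 1 when single libraries were left out. In the *dsx*RNAi genitalia it was 0 to 1 on the same basis, 1 under DESeq2 and 1 with all 4 groups in 1 fit. *pax6* between brain and head horns reversed to 0.30 under library totals. With Spearman correlation 0 of the 3 names most like *so* and 1 of the 3 most like *tll* were shared. *eya1* between head horns and genitalia was -0.20 (adjusted p = 0.0320) and -0.14 without control female replicate 89 (adjusted p = 0.117, edgeR).

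Counts over all genes moved by more than 1.5 times in some comparisons. Head horns against thoracic horns gave 2707 genes, 1369 with control libraries only and 1633 under library totals. Control sexes gave 595 genes in head horns (1215 under DESeq2, 191 under library totals), 32 in thoracic horns (199 under DESeq2, 15 with all groups in 1 fit), 16 in the brain (122 under DESeq2) and 1028 in genitalia (450 without a filter, 2748 under DESeq2, 121 to 4568 without single libraries). *dsx*RNAi sexes gave 206 in genitalia (136 without a filter, 1201 under DESeq2, 588 with all groups in 1 fit, 60 under library totals, 20 to 1680 without single libraries) and 14 in the brain (53 under DESeq2). *dsx*RNAi against control males gave 36 in head horns (525 under DESeq2, 64 in 1 fit, 18 under library totals). *dsx*RNAi against control females gave 1 in genitalia (15 under DESeq2, 5 in 1 fit), and the 9 comparisons with 0 genes gave up to 114 under DESeq2 and up to 5 in 1 fit. Interactions gave 140 in head horns (67 without a filter, 522 under DESeq2), and 1 and 2 in thoracic horns and genitalia (14 and 19 under DESeq2). *tll* outside the brain, *pax6* in the thoracic horns and genitalia and *six3* in the thoracic horns had at most 4 reads per library, so that differences among those tissues could not be measured precisely at this depth. The causes of these shifts were not tested.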
